A study of Mus musculus with 12 samples.

Results

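The effect of an MDMX transgene was examined in mouse blood stem and progenitor cells that already lacked a control element of Spi1. Libraries were taken by their genotype label: 3 of Mdmx-Tg/Pu.1-URE-/- (the double mutant) and 3 of Pu.1-URE-/-, 6 of the 12 libraries of the series. Both groups are homozygous for loss of the upstream regulatory element (URE) of Spi1, the gene that encodes PU.1, a transcription factor of blood cells. The double mutant carries the Mdmx transgene in addition. The other 6 libraries, 3 Wild-type and 3 Mdmx-Tg, served for the shared estimate of the spread and for the same contrast in a background with an intact element. RNA came from sorted Flk2-negative, lineage-negative, Sca-1+ Kit+ bone marrow cells, and every library has a mouse number of its own. The promoter of the transgene and the strain, age and sex of the animals are not given in the sources used here.

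MDMX, the product of Mdm4, binds p53 and holds its transcriptional activity down, together with its relative MDM2. PU.1 directs myeloid and lymphoid differentiation of blood progenitors, and its level in stem cells depends on the upstream element. Mice without this element have low PU.1 in stem cells and pass through a preleukaemic state before acute myeloid leukaemia develops. The title of the series places MDMX at the step from the preleukaemic state to leukaemia, and the contrast described here is the one in which the transgene is added to that state.

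Levels are given as CPM, the estimated reads of a gene scaled to a common library size with edgeR's TMM factors. Differences are log2 changes of the double mutant minus Pu.1-URE-/-, with standard error (SE), from edgeR's quasi-likelihood test over 15012 genes, with Benjamini-Hochberg adjusted p-values. Groups are said not to overlap where all 3 libraries of the double mutant lie above, or all 3 below, those of Pu.1-URE-/-. The p-values measure the spread between these animals, 3 per group.

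No gene passed the adjusted threshold of 0.05 in this contrast, so every difference below is given as a measured value. The smallest adjusted p, 0.15, was that of Paqr9, a membrane receptor gene with no read in the double mutants and 1.35, 2.39 and 1.48 CPM in Pu.1-URE-/-, at least 90.9-fold lower by a floor of 3 reads over the group. The next adjusted p was 0.406. An unadjusted p below 0.05 was reached by 1601 genes (10.7% of those tested), 810 higher (5.40%) and 791 lower (5.27%). The groups did not overlap at 2829 genes (18.8%), of which 1485 were higher in the double mutant (9.89%) and 1344 lower (8.95%). limma-voom called 0 genes, and DESeq2 called 329 of the 14447 for which it gave an adjusted p (2.28%), 137 higher (0.948%) and 192 lower (1.33%). Among those 329 genes, the groups overlapped at 111, 67 had no read in the double mutant and 37 had none in Pu.1-URE-/-.

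The 6 libraries held 48444402 to 54956119 reads each. On the leading principal component of their log2 CPM (30.2% of the variance), Pu.1-URE-/- libraries lay at -69.7, -46.9 and -65.2 and the double mutants at 3.46, 23 and 155, with library 3 farthest out. Double mutants 1 and 3 had Y-linked reads (205 and 211 CPM summed over 4 genes), while double mutant 2 and all 3 Pu.1-URE-/- libraries had 2.28 to 5.26 CPM. Genotype and sex are thus partly confounded here, and double mutant 2 is the library that matches the Pu.1-URE-/- animals. Immunoglobulin reads took 0.144%, 4.39% and 2.50% of the double mutant libraries and 0.611%, 1.19% and 3.31% of the others.

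Mdm4 (GRCm38, chr1:132959484-133030561, minus strand), the gene of MDMX, was measured to check the labels. It stood at 353, 163 and 210 CPM in the double mutants and at 93.9, 56.2 and 90.3 CPM in Pu.1-URE-/-. All 3 transgenic libraries lay above all 3 others, with a log2 change of 1.59 (SE 0.46; 3.02-fold, unadjusted p = 0.00514, edgeR adjusted p = 0.406). DESeq2 called it, with a log2 change of 1.54 and an adjusted p of 0.0283. In the double mutant most Mdm4 reads were assigned to a single short coding transcript, Mdm4-201 (1914 bases). It received 12128, 4477 and 5742 reads there, or 69.1%, 51% and 54.2% of the reads of the gene, against 145, 143 and 0 in Pu.1-URE-/-. Summed over all other Mdm4 transcripts, the reads overlapped between the groups, 5424, 4296 and 4843 against 4446, 3049 and 4582. Within that sum, short transcripts not annotated as coding were also higher in the double mutant. Mdm4-204 (496 bases) had 1208, 437 and 392 reads against 104, 26 and 63. Mdm4-212 (587 bases) had 718, 331 and 308 reads against 98, 0 and 23. Corrected for transcript length, the log2 change of Mdm4 was 2.90. The added reads lie mostly on transcripts far shorter than the main endogenous one, Mdm4-210 (7105 bases). On the deposited length-corrected TPM scale the gene stood at 325, 101 and 132 in the double mutants and at 29.8, 12.7 and 21.1 in Pu.1-URE-/-. Mdmx-Tg libraries, which carry the transgene with an intact element, had 162.7 to 535 CPM of Mdm4.

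Spi1 (chr2:91082390-91115756, plus strand) lay lower in the double mutant, although both groups lack the same element. It stood at 3.48, 1.84 and 0.0198 CPM in the double mutants, the last being 1 read, and at 8.73, 8.73 and 23.9 CPM in Pu.1-URE-/-. The groups did not overlap, with a log2 change of -2.95 (SE 1.27, unadjusted p = 0.0408, edgeR adjusted p = 0.453). DESeq2 did not call it (adjusted p = 0.124). Spi1 varied from 5.34 to 38 CPM within the Wild-type group, so its spread was large in this series. All 3 Pu.1-URE-/- libraries lay within that range, so their Spi1 RNA level was not separated from Wild-type here. The short noncoding transcript Spi1-202 had 0 reads in all 6 libraries without the element and 53 to 321 in each of the 6 with it.

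**Figure D1:**
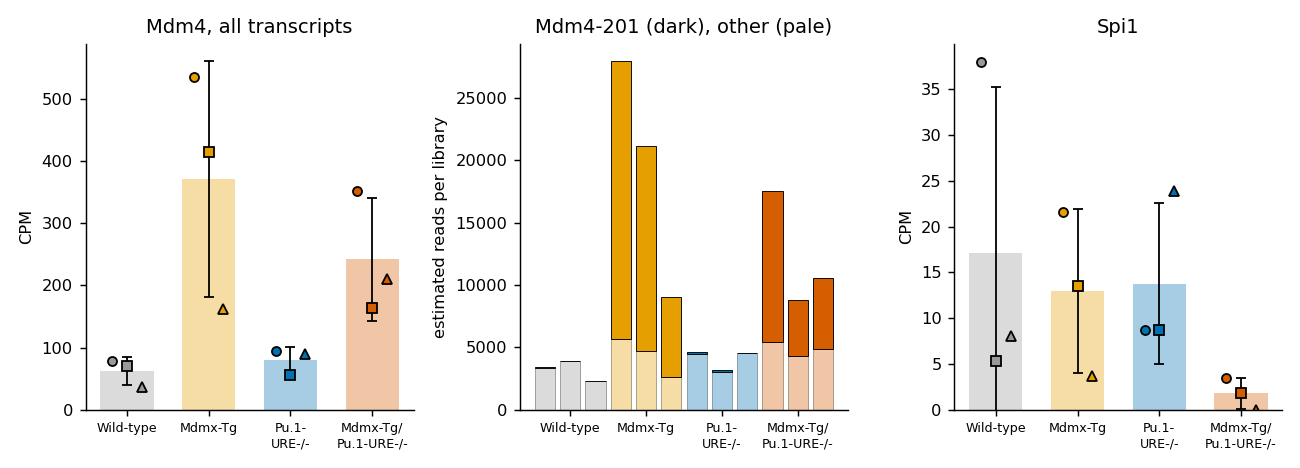
Mdm4 in CPM (left), estimated reads per library on Mdm4-201 and on all other Mdm4 transcripts (centre) and Spi1 in CPM (right) in the 4 genotypes, 3 libraries each. Bars at left and right are means with SD and symbols are libraries 1 (circle), 2 (square) and 3 (triangle); the dark part of the centre bars is seen in the transgenic libraries, and Spi1 lies lowest in the double mutant.

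Of the other genes of the p53 pathway, Trp53 itself did not separate the groups: it stood at 285, 330 and 253 CPM in the double mutants and 265, 319 and 292 in Pu.1-URE-/-. Mdm2, whose product ubiquitinates p53, stood at 59.9, 59.2 and 62.4 CPM against 77.3, 36.97 and 50.9, again with overlap. Among 17 tested regulators of p53 the groups did not overlap at 7, with 4 higher (Mdm4, Rchy1, Chek1 and Chek2) and 3 lower (Hipk2, Ppm1d and Kat5), where 9.89% and 8.95% of all genes did so. Mdm4 is here through the transgene. Rchy1, a further ubiquitin ligase of p53, stood at 185, 149 and 222 CPM against 90.3, 126 and 99.0 (log2 change 0.82, SE 0.23). Hipk2, a kinase that activates p53, stood at 16.9, 14.7 and 10.98 CPM against 27.8, 25.2 and 20.1 (log2 change -0.78, SE 0.31).

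Genes that p53 activates lay in both directions. Of 43 tested, the groups did not overlap at 3 higher and 4 lower members, shares near those of all genes, and the median log2 change was -0.17 against 0.0058 over all genes tested. Cdkn1a, which encodes the cell cycle inhibitor p21 and is the best known of these targets, stood at 10.5, 16.1 and 4.90 CPM in the double mutants and 25.9, 59.7 and 18.1 in Pu.1-URE-/-. Its groups did not overlap, and the log2 change was -1.72 (SE 0.63, unadjusted p = 0.0204, edgeR adjusted p = 0.413). Among the 9 libraries with low Y-linked reads, which hold double mutant 2 only, the log2 change was -1.10 for Cdkn1a, 0.50 for Rchy1 (0.82 over all) and 1.02 for Mdm4. Bax, which drives apoptosis, stood at 75.6, 90.0 and 64.5 CPM against 95.5, 109 and 109 (log2 change -0.45, SE 0.22; -0.22 in those libraries). Tap1, a peptide transporter of antigen presentation, stood at 106, 67.8 and 57.4 CPM against 125, 119 and 128. Gtse1, which restrains p53 in G2 and is itself a p53 target, was another member without overlap, at 24.2, 9.93 and 14.2 CPM against 54.4, 31.3 and 39.5 (log2 change -1.37; -2.08 in those libraries). In the other direction, the epoxide hydrolase gene Ephx1 stood at 2.98, 2.18 and 6.90 CPM against 1.13, 0.792 and 0.789 (log2 change 2.15; 1.26 in those libraries), and the small GTPase gene Rap2b at 137, 167 and 190 CPM against 65.9, 115 and 82.2.

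The 30 leading genes, 15 in each direction, were those with the smallest unadjusted p among well-expressed protein-coding genes with no overlap between groups. Their p ran from 0.000346 to 0.00174, all had an edgeR adjusted p of 0.406, and DESeq2 called all 30. The higher ones had log2 changes of 0.79 to 3.69 and the lower ones of -2.09 to -0.80. They were Rad9b, Kdelc2, Cdkn1b, Ssbp1, Sirt3, Rbm26, Phf14, Fkbp3, Zfp512b, Cpa3, Cnot6l, Rnf122, Itga9, Sp4 and Tut4 on the higher side, and Coro7, Was, Sh2b1, Chaf1a, Stradb, Trappc9, Ccnd3, Cd24a, Vcl, Actn4, Wbp11, Asb1, Rangap1, Trappc2l and Rbm10 on the lower side.

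Cdkn1b encodes p27, an inhibitor of cyclin-dependent kinases that is linked to stem cell quiescence. It stood at 109, 52.6 and 144 CPM in the double mutants and 37.3, 37.9 and 27.9 in Pu.1-URE-/- (log2 change 1.57, SE 0.34). Double mutant 2 was the lowest of the 3, and the log2 change in the fit of the libraries with low Y-linked reads was 0.61. Kdelc2, which encodes a glucosyltransferase of the endoplasmic reticulum, stood at 52.9, 37.4 and 64.6 CPM against 10.8, 13.5 and 7.195 (log2 change 2.30, SE 0.48; 1.83 in the same libraries). Itga9, the integrin alpha-9 chain, stood at 16.5, 11.1 and 28.3 CPM against 1.08, 1.07 and 2.15, with a log2 change of 3.69 (SE 0.86). It was the widest gap among the 30. Cpa3, the mast cell carboxypeptidase, which early progenitors also express, stood at 416, 279.7 and 398 CPM against 62.9, 138 and 21.4 (log2 change 2.30, SE 0.54). Of 26 mast cell and basophil genes tested, the groups did not overlap at 4, all higher (Cpa3, Hgf, Ifitm1 and Mitf), with a median log2 change of 0.15. Over all genes tested, 9.89% were higher in this way. The granule protease gene Mcpt8 overlapped, at 377, 168 and 360 CPM against 240.3, 229 and 321, and Ms4a2, a chain of the IgE receptor, was at 1.53 CPM or less in all 6 libraries. Sirt3, the mitochondrial deacetylase, stood at 348, 294 and 496 CPM against 158, 218 and 187 (log2 change 1.02; 0.64 in the libraries with low Y-linked reads), and Ssbp1, which binds mitochondrial single-stranded DNA, at 193, 244 and 246 CPM against 92.6, 146 and 109.

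Several of the lower leading genes act on the actin cytoskeleton. Was, the Wiskott-Aldrich syndrome protein gene of blood cells, stood at 35.6, 18.5 and 17.2 CPM against 75.5, 56.8 and 84.6 (log2 change -1.60, SE 0.34). Vcl, which encodes vinculin of focal adhesions, stood at 20.7, 5.43 and 12.8 CPM against 63.4, 34.5 and 56.0 (log2 change -1.99, SE 0.48; -3.25 in the libraries with low Y-linked reads). Actn4, alpha-actinin 4, stood at 163, 92.9 and 79.7 CPM against 321, 196 and 298, and Coro7, a coronin, at 46.9, 31.7 and 40.8 CPM against 99.6, 64.0 and 116. This reading of the 4 genes was made after their values were seen, and no list of cytoskeletal genes was examined. Ccnd3, the D-type cyclin that drives G1 progression, stood at 142, 111 and 101 CPM against 499, 185 and 397 (log2 change -1.61, SE 0.38). Cd24a, a surface antigen of many blood progenitors, stood at 111, 135 and 75.6 CPM against 245, 200 and 199.

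**Figure D2:**
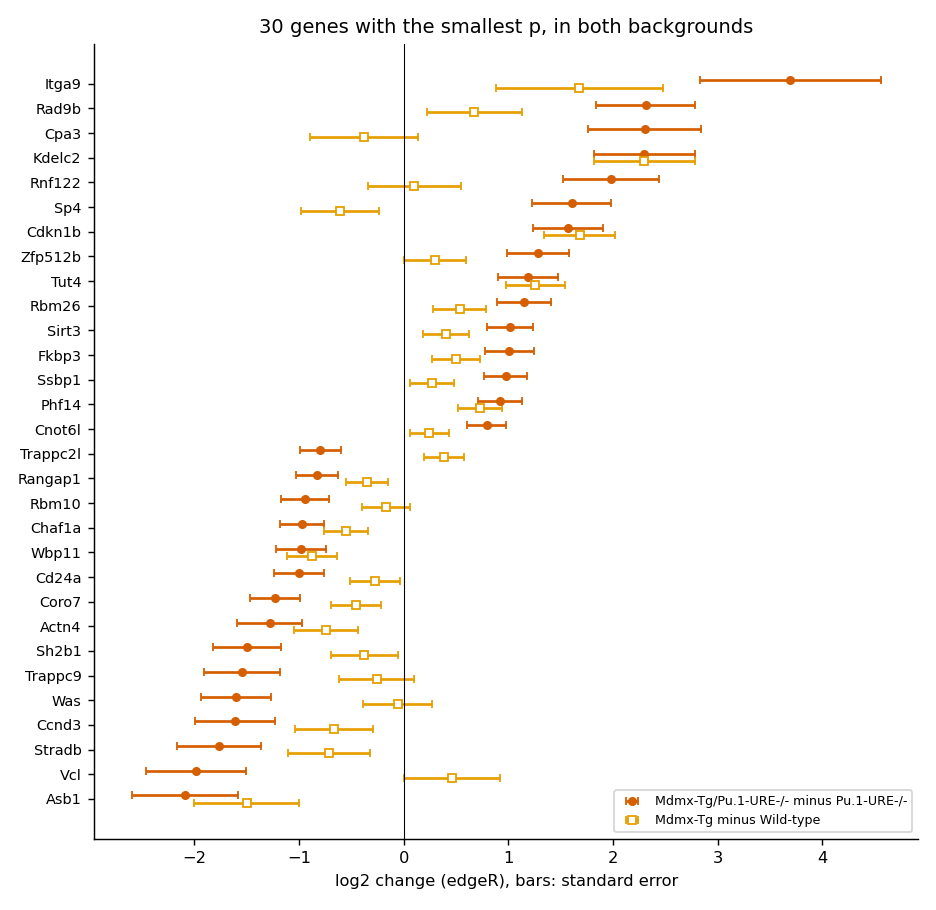
Log2 change with its standard error for the 30 leading genes, in the background without the element (filled circles) and with it (open squares). Kdelc2, Cdkn1b and Tut4 have nearly the same change in both, and Cpa3, Sp4, Vcl and Trappc2l have opposite signs.

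Neutrophil granule genes lay mostly lower in the double mutant than in Pu.1-URE-/-, and Elane, Prtn3 and Mpo still lay above all Wild-type libraries. The 18 azurophil (primary) granule genes together took 3.64%, 1.38% and 2.12% of scaled reads in the double mutants and 6.12%, 3.28% and 5.25% in Pu.1-URE-/-. Of the 17 tested, 15 had a log2 change below 0, and the median was -0.59 against 0.0058 for all genes. The groups did not overlap at 2 lower members, Man2b1 and Mpo, and at 1 higher member, Ctsc, near the shares over all genes (8.95% lower and 9.89% higher). By an unadjusted edgeR p below 0.05, however, 6 of the 17 were lower and 0 higher, where 5.27% and 5.40% of all genes were so. Mpo, the myeloperoxidase gene, stood at 10980, 3168 and 8458 CPM against 21600, 12760 and 17860 (log2 change -1.21, SE 0.49, unadjusted p = 0.0316, edgeR adjusted p = 0.433; -2.46 in the libraries with low Y-linked reads). Elane, neutrophil elastase, stood at 11930, 4287 and 4683 CPM against 22490, 9697 and 17980 (log2 change -1.26, SE 0.45; -1.97 in those libraries). Prtn3, proteinase 3, stood at 1580, 669 and 510.3 CPM against 2855, 1406 and 2888 (log2 change -1.37, SE 0.42). For both proteases, double mutant 1 lay above the lowest Pu.1-URE-/- library, so their groups overlapped, and their wild-type means were 224 and 125 CPM. Wild-type libraries had 761, 890 and 1804 CPM of Mpo, and double mutant 2 was the nearest to them.

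The promoters of these 3 genes share an ETS-type motif, the kind of sequence that PU.1 binds, shown here because all 3 had lower mean levels. Each sequence below is 30 bases of the RefSeq promoter (GRCm38.p6, plus strand), with the letters GAGGAAGT in capitals.
Elane, chr10:79886216-79886245: cgtgtcccaggGAGGAAGTagggctgtggc
Prtn3, chr10:79879561-79879590: caaactggaagGAGGAAGTgggacccacag
Mpo, chr11:87793549-87793578: gtggagagagaGAGGAAGTtgcctttgtcc
The motif begins 85, 95 and 224 bases before the RefSeq start of Elane, Prtn3 and Mpo. It was picked after the sequences were seen, searched on both strands in the 250 bases before each start, and was found in 802 of 32851 promoters (2.44%). Of the 15 azurophil granule genes with a promoter in the table, 4 held it, the fourth being Ctsc, which lay higher in the double mutant. A match describes the letters and is not a measured binding site.

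Specific and gelatinase granule genes lay mostly in the same direction. Of 25 tested, 21 had a log2 change below 0 and the median was -1.14, while the groups did not overlap at 3 lower members and 1 higher member, near the shares over all genes. The 30 listed genes took 3.31%, 2.69% and 2.89% of scaled reads against 10.2%, 2.87% and 7.11%, so Pu.1-URE-/- library 2 lay with the double mutants. Ngp, neutrophilic granule protein, stood at 15110, 11660 and 13970 CPM against 49210, 13400 and 36340. S100a8, a calcium-binding protein of neutrophils, stood at 3449, 3680 and 2398 CPM against 10450, 2808 and 9556. Markers of more mature neutrophils spanned a wide range in the 6 libraries: Cxcr2 stood at 1.97 to 4.72 CPM, Ly6g at 3.19 to 45.8, Retnlg at 21.4 to 79.0 and Camp at 7868 to 30220. Of these, Ly6g had no read in the 6 libraries with the element. Fewer cells of a type and less RNA per cell cannot be told apart in such bulk libraries.

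Genes that depend on PU.1 lay mostly lower, although groups without overlap were no more frequent among them than among all genes. Of 48 tested, 35 had a log2 change below 0 and the median was -0.56, and the groups did not overlap at 4 lower and 3 higher members, shares no larger than the 8.95% and 9.89% over all genes. By an unadjusted edgeR p below 0.05, 7 members were lower and 3 higher, where 5.27% and 5.40% of all genes were so. Itgb2, the common beta-2 integrin chain, stood at 148, 85.1 and 121 CPM against 494, 159 and 412 (log2 change -1.59, SE 0.44). Coro1a, a leukocyte coronin, stood at 251, 148 and 146 CPM against 497, 259 and 528 (log2 change -1.24, SE 0.32). Lsp1, a leukocyte actin-binding protein, stood at 6.15, 22.0 and 0.317 CPM against 92.2, 57.1 and 159 (log2 change -3.43, SE 1.02; -2.23 in the libraries with low Y-linked reads), below all Wild-type libraries too, whose mean was 110.2 CPM. Cd48 and Cd53, surface antigens of blood cells, lay on the other side: Cd48 at 285, 200.3 and 198 CPM against 79.5, 120.4 and 91.0, and Cd53 at 39.2, 29.0 and 80.0 CPM against 14.1, 15.1 and 18.6 (log2 change 1.63; 0.86 in those libraries). Cebpe, the factor of late granulocyte differentiation, stood at 261, 184 and 87.9 CPM against 674, 399.9 and 998 (log2 change -1.96, SE 1.32), but its sign turned, to 0.26, with Y-linked expression as a covariate.

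**Figure D3:**
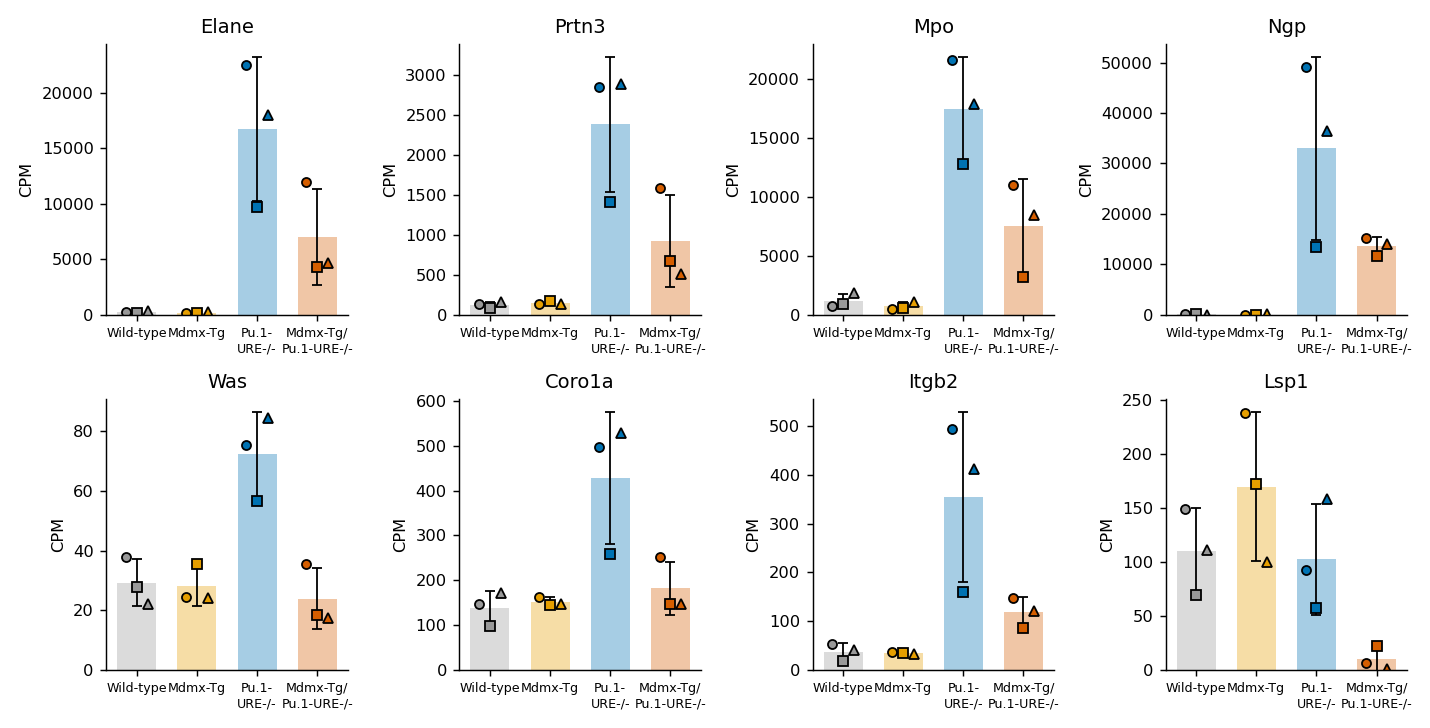
CPM of 3 azurophil granule genes, 1 specific granule gene and 4 genes of leukocyte signalling or cytoskeleton in the 4 genotypes; bars are means with SD, symbols libraries 1 (circle), 2 (square) and 3 (triangle). The granule genes shown are high where the element is deleted, and lower with the transgene, while Lsp1 lies below all other groups in the double mutant.

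Genes tied to self-renewal in leukaemia lay higher in the double mutant where the groups separated. Of 51 tested, the groups did not overlap at 9 higher and 0 lower members, where 9.89% of all genes were higher in this way. The median log2 change was 0.25, and it was 0.54 in Mdmx-Tg against Wild-type. Msi2, an RNA-binding protein that sustains stem cells, stood at 113, 102 and 99.4 CPM against 32.1, 70.8 and 33.4 (log2 change 1.21, SE 0.31, unadjusted p = 0.00258, edgeR adjusted p = 0.406). Bcl2, which blocks apoptosis, stood at 41.1, 39.2 and 55.6 CPM against 23.6, 22.0 and 27.8 (log2 change 0.89, SE 0.27). Hoxa9, a homeobox gene that drives myeloid leukaemia, stood at 69.3, 61.2 and 96.8 CPM against 30.3, 55.9 and 44.7 (log2 change 0.80, SE 0.31; 0.48 in the libraries with low Y-linked reads), and its neighbour Hoxa7 at 24.2, 17.7 and 25.8 CPM against 7.44, 16.4 and 9.09 (1.04, and 0.69 in those libraries, on the log2 scale). Its partner Meis1 overlapped, at 208, 126 and 436 CPM against 44.97, 147 and 107, and its log2 change of 1.36 was 0.33 in the libraries with low Y-linked reads. None of these genes passed the adjusted test, and DESeq2 called Msi2 (adjusted p = 0.0204) but not Bcl2, Hoxa7, Hoxa9 or Meis1.

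Stem cell genes were found on both sides. Of 51 tested, the groups did not overlap at 7 higher and 2 lower members, with a median of 0.24, where 9.89% and 8.95% of all genes did so. An unadjusted edgeR p below 0.05 was reached by 6 higher and 5 lower members. Cd34, a surface antigen of progenitors, stood at 274, 155 and 342 CPM against 67.0, 128 and 97.4 (log2 change 1.40, SE 0.35; 0.67 in the libraries with low Y-linked reads). Cd27, a lymphoid priming gene that also marks multipotent progenitors, stood at 97.3, 71.3 and 88.0 CPM against 18.3, 51.3 and 45.4. In contrast, Cdkn1c, which encodes p57 and is characteristic of quiescent stem cells, had no read in any double mutant and stood at 0.695, 1.51 and 0.749 CPM in Pu.1-URE-/-, at least 51.8-fold lower in the double mutant by the floor of 3 reads. The transgene alone showed no such lack of reads: Cdkn1c stood at 10.6, 3.08 and 3.17 CPM in Mdmx-Tg, and Wild-type libraries had 1.54 to 3.09 CPM. Other stem cell markers overlapped: Procr stood at 17.6, 11.8 and 41.1 CPM against 12.4, 23.0 and 30.7, and Hlf at 55.8, 66.2 and 99.8 CPM against 30.5, 57.3 and 52.5. Tek and Hoxb5 were nearly without reads in the double mutant. Tek stood at 0, 0 and 0.0396 CPM against 1.02, 0 and 5.13, and Hoxb5 had no read against 0, 1.07 and 0.513 CPM. Their groups overlapped through the Pu.1-URE-/- library with no read. DESeq2 called both (adjusted p = 0.00726 for Tek and 0.00911 for Hoxb5). The gate genes Kit (165 to 261 against 171 to 228 CPM) and Ly6a, which encodes Sca-1 (41.9 to 58.2 against 43.8 to 66.7 CPM), overlapped in level.

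Cell cycle genes with separated groups lay mostly lower. Of 52 G2/M genes tested, 48 had a log2 change below 0, the groups did not overlap at 7 lower and 0 higher members, and the median was -0.45. Over all genes tested, 8.95% were lower and 9.89% higher without overlap. The summed G2/M level was 7989, 7566 and 8106 CPM against 12550, 7562 and 10930, so Pu.1-URE-/- library 2 lay with the double mutants. Ube2c, the ubiquitin-conjugating enzyme of mitotic exit, stood at 168, 111 and 103 CPM against 277, 178 and 247, and Plk1, a mitotic kinase, at 146, 85.0 and 84.7 CPM against 293, 154 and 269.6. Of 52 S phase genes the groups did not overlap at 8 lower and 2 higher members, with a median of -0.05. Chaf1a, a histone chaperone of replicating DNA, stood at 27.6, 25.3 and 32.6 CPM against 55.2, 53.4 and 58.7 (log2 change -0.97, SE 0.21). Rrm2, a ribonucleotide reductase subunit, stood at 364, 263 and 321 CPM against 772, 369 and 634. Cdkn2d, the inhibitor p19, stood at 136, 88.4 and 95.3 CPM against 249, 127 and 249.5, with overlap.

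**Figure D4:**
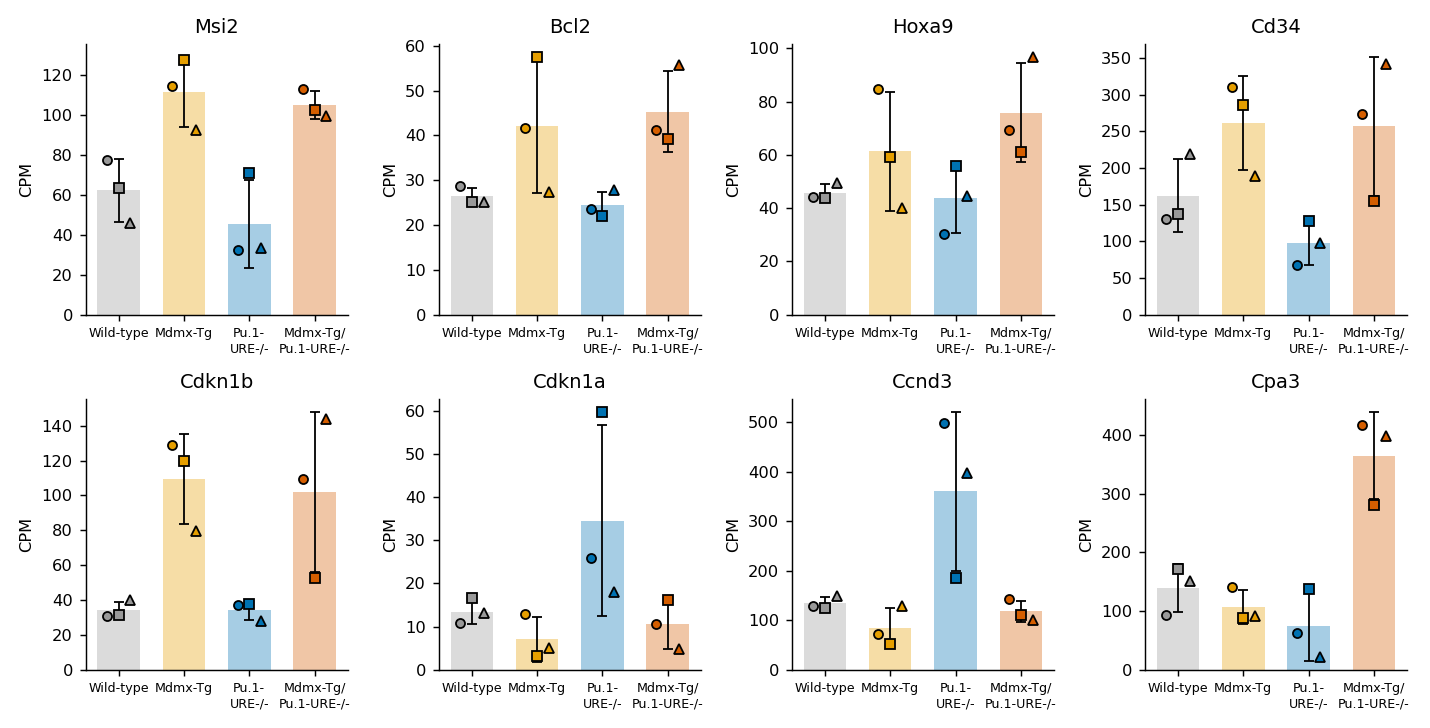
CPM of genes of self-renewal and stem cells (Msi2, Bcl2, Hoxa9, Cd34), of cell cycle control (Cdkn1b, Cdkn1a, Ccnd3) and of Cpa3 in the 4 genotypes; bars are means with SD, symbols libraries 1 (circle), 2 (square) and 3 (triangle). In all 8 panels the double mutant and Pu.1-URE-/- libraries do not overlap, and Cdkn1b is also high in Mdmx-Tg.

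Among lists of 10 or more tested genes, that of the mitochondrial genome had the largest share of separated members. Of its 13 messenger RNAs the groups did not overlap at 8, all higher, against 9.89% of all genes, and the median log2 change was 0.42. mt-Cytb, the cytochrome b gene, stood at 8416, 9623 and 16610 CPM against 5413, 5493 and 6242 (log2 change 1.01, SE 0.36, unadjusted p = 0.0155, edgeR adjusted p = 0.406). mt-Co2, a cytochrome oxidase subunit, stood at 809, 929 and 1166 CPM against 662, 657 and 658. The 13 genes come from 1 polycistronic genome and are not independent, and their median was 0.63 in Mdmx-Tg against Wild-type. Nuclear genes of oxidative phosphorylation did not lie with them: of 74 tested, 3 were higher and 8 lower without overlap, with a median of -0.0029. The share of mitochondrial reads also tracks RNA quality, which was not tested here.

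Genes of the integrated stress and unfolded protein responses lay mostly lower. Of 26 tested, the groups did not overlap at 9 lower members and 1 higher member, against 8.95% of all genes on the lower side, and the median was -0.45. Hspa5, the main chaperone of the endoplasmic reticulum, stood at 615, 460.1 and 662 CPM against 1018, 917 and 1006 (log2 change -0.76, SE 0.29). Atf4, the transcription factor at the centre of the stress response, stood at 32.4, 31.9 and 36.3 CPM against 47.8, 56.2 and 55.5 (log2 change -0.66, SE 0.22). Chac1, a target of this factor, had no read in the double mutants and 8.71, 3.40 and 3.10 CPM in Pu.1-URE-/-. It was at least 254.6-fold lower in the double mutant by the same floor (SE of the log2 change 3.58). Reads of Chac1 were also lacking in Mdmx-Tg libraries 1 and 2, and Wild-type library 2 had 0.018 CPM, so their absence was not particular to the double mutant. Of 25 immediate early and handling-stress genes, 24 had a log2 change below 0. The groups did not overlap at 6 lower and 0 higher members, against 8.95% of all genes on the lower side. Fos stood at 125, 21.2 and 73.1 CPM against 144, 229 and 472 (log2 change -1.95; -3.74 in the libraries with low Y-linked reads), and Ier2 at 226, 93.7 and 22.8 CPM against 243, 470.3 and 441. These genes respond to cell handling, and dissociation and sorting times are not given in the sources used here.

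Wnt signalling genes were examined as a list. Of 45 components tested, the groups did not overlap at 5 higher and 4 lower members (median 0.20), and of 23 target genes at 2 higher and 0 lower members (median -0.0018), near the shares over all genes (9.89% higher and 8.95% lower). Ctnnb1, which encodes beta-catenin, stood at 169, 192 and 241 CPM against 111, 177 and 97.2 (log2 change 0.65, SE 0.24), with overlap. On the higher side, the ligand gene Wnt5b stood at 3.16, 3.65 and 1.82 CPM against 0, 0 and 0.0197, the last being 1 read. Its edgeR adjusted p was 0.406 and its DESeq2 adjusted p 0.0425. The receptor gene Fzd6 stood at 14.33, 10.75 and 10.05 CPM against 2.60, 4.51 and 3.88 (log2 change 1.68, SE 0.52). Gsk3b, a kinase that marks beta-catenin for destruction, stood at 520.4, 493 and 796 CPM against 353, 434 and 329 (log2 change 0.70; 0.40 in the libraries with low Y-linked reads). Of the targets, Ccnd1 stood at 31.8, 38.4 and 24.2 CPM against 7.26, 19.7 and 14.3, and Znrf3, a ligase that removes Wnt receptors, at 82.4, 91.5 and 155 CPM against 33.7, 71.2 and 35.8.

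Erythroid genes varied between the double mutants themselves. Of 37 tested, 33 had a log2 change below 0 (median -0.77). The groups did not overlap at 6 lower members and 1 higher member, where 8.95% and 9.89% of all genes did so. Klf1, the erythroid master regulator, stood at 1.63, 145 and 20.2 CPM against 202, 223 and 93.0, and Car1, an early erythroid carbonic anhydrase, at 16.6, 608 and 58.7 CPM against 437, 727 and 236. Double mutant 2 thus lay with the Pu.1-URE-/- libraries for both genes and the other two double mutants below them. Markers of other lineages were partly present. Trac (T cells), Epx (eosinophils), Adgre1 (macrophages) and Cdh5 (endothelium) had no read in any of the 6 libraries, while Klrb1c (NK cells) stood at 2.25 to 9.23 CPM, Prg2 (eosinophils) at 2.00 to 27.2, Pecam1 (endothelium and other cells) at 77.3 to 216 and Vcam1 (macrophages and stroma) at 380.6 to 2661. The summed level of 13 eosinophil genes was 273.8, 290.7 and 104.7 CPM in the double mutants and 752.7, 496.5 and 1060 in Pu.1-URE-/-. These sums did not overlap, but Cebpe, a member of that list, made up most of each. It stood at 261, 184 and 87.9 CPM against 674, 399.9 and 998. Of the 9 eosinophil genes tested, the groups did not overlap at 1 lower and 0 higher members. The gap between the sums therefore does not describe the list as a whole. The summed level of 32 listed T and NK cell markers overlapped between the groups (1797 to 3689 against 2808 to 4090 CPM), with 4 of 24 tested higher and 0 lower without overlap. For 41 monocyte and macrophage markers the sum was 1317 to 2594 against 2248 to 4920 CPM, with 4 of 32 higher and 0 lower. Both counts stand beside 9.89% of all genes higher in this way. Among the 32 monocyte and macrophage genes, 2 higher and 5 lower members had an unadjusted edgeR p below 0.05. At least 7 of the 32 had no read in 1 of the groups. The sum of 32 mature B and plasma cell markers ran from 1709 to 33240 CPM in the double mutants and from 6117 to 26220 CPM in Pu.1-URE-/-. With Jchain, a plasma cell gene, as a covariate, the direction held for all 149 genes followed. With immunoglobulin genes left out it held for the 148 that could be compared. None of these genes was called in the main fit or in these fits, so no call could be lost.

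**Figure D5:**
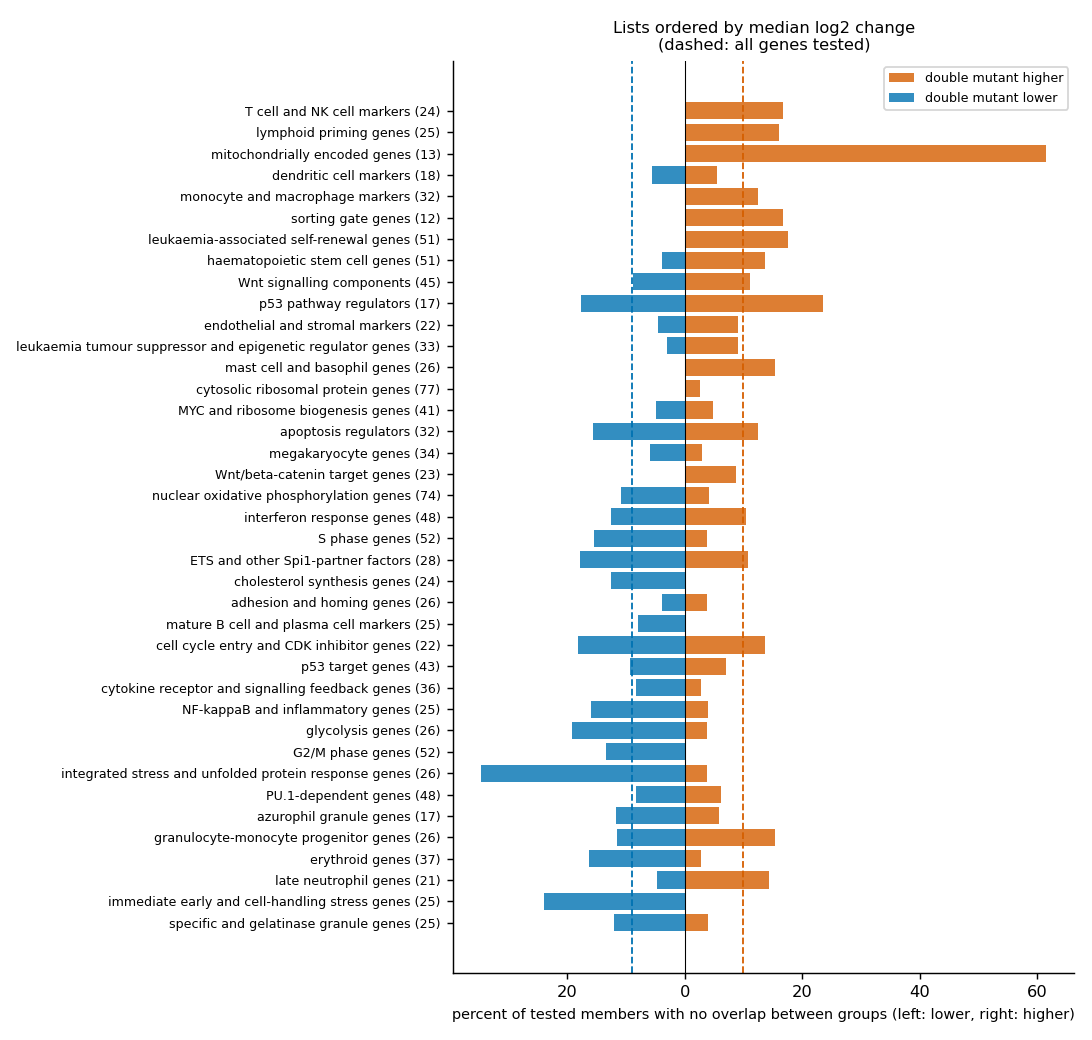
Percent of the tested members of each list with 10 or more tested genes (number in brackets; the Y-linked and the targeted genes are not shown) at which the double mutant and Pu.1-URE-/- libraries did not overlap, higher to the right and lower to the left; dashed lines give 9.89% and 8.95%, the shares over all genes tested. Mitochondrially encoded genes reach farthest to the right and stress response genes farthest to the left.

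Whether the transgene acts differently without the element was tested as the difference between this contrast and Mdmx-Tg minus Wild-type, which shares no library with it. That contrast is partly confounded with sex too. Wild-type library 2 had 222 CPM of Y-linked reads, Wild-type 1 and 3 had 2.16 and 2.24, and Mdmx-Tg 3.15 to 4.25. Such reads lie on the transgenic side here and on the Wild-type side there. The difference of effects, and any comparison of the backgrounds below, carries both imbalances. edgeR called 0 genes (smallest adjusted p 0.68, 871 genes or 5.80% with an unadjusted p below 0.05), and DESeq2 called 194 of 14736 (1.32%). The 30 leading genes were chosen for their p in one arm of this difference, so for them the changes are given side by side without a test. Cpa3 had a log2 change of 2.30 without the element and -0.38 with it, Sp4 of 1.60 and -0.61, Vcl of -1.99 and 0.46, and Was of -1.60 and -0.06.

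Other differences were of similar size in both backgrounds. Kdelc2 stood at 60.2, 72.1 and 24.2 CPM in Mdmx-Tg and 7.29, 17.3 and 7.22 in Wild-type, a log2 change of 2.30 there also. Cdkn1b stood at 129, 120 and 79.8 CPM in Mdmx-Tg and 31.1, 31.7 and 39.8 in Wild-type (log2 change 1.68, SE 0.34), against 1.57 in the double mutant. Tut4, which uridylates RNA, had log2 changes of 1.26 there and 1.19 here (0.70 in the libraries with low Y-linked reads). Of the 15 higher leading genes, 5 (Kdelc2, Cdkn1b, Sirt3, Phf14 and Tut4) were also higher without overlap in Mdmx-Tg against Wild-type, and 6 of the 15 lower ones (Coro7, Chaf1a, Stradb, Cd24a, Actn4 and Wbp11) were also lower. Over all genes tested, 6.61% were higher and 7.05% lower without overlap in Mdmx-Tg. For the whole table, 244 were higher without overlap in both contrasts, which is 16.4% of the 1485 higher here and 24.6% of the 993 higher in Mdmx-Tg, and 229 were lower in both, 17% of 1344 and 21.6% of 1058. Against these stood 38 genes higher here and lower in Mdmx-Tg and 32 of the reverse kind. Across the 15012 genes, which are not independent, Spearman's rho of the 2 sets of log2 changes was 0.23 and Pearson's r 0.093.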

How the data were processed

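RNA-seq of sorted mouse marrow cells was quantified by the authors with Salmon, after FastQC, against mm10/GRCm38, per the submitters' processing notes, which also name DESeq2. The deposited tables hold, per the file headers, estimated counts per transcript (not always whole numbers), effective length, and TPM, which scales for length and depth. Estimated counts were summed per gene with GENCODE M21; 253 of 116248 transcripts matched no gene and stayed out. Sums were rounded and filtered with filterByExpr (minimum count 10, minimum total 15), leaving 15012 genes. All 12 libraries were fitted together by genotype with edgeR 4.0.16 (TMM, quasi-likelihood) in R 4.3.3, and p-values were adjusted over all genes. DESeq2 1.42.0 and limma 3.58.1 were alternatives, with other filters, scalings, covariates and left-out libraries. The procedure was tested on simulated data as a check of the code, not of how many true changes could be missed. Mouse numbers in the labels are distinct, so libraries were taken as single animals.

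The 30 leading genes were the 15 in each direction with the smallest p among protein-coding genes whose groups did not overlap and whose log2 CPM averaged 2 or more, and up to 4 members of each of 42 lists with the smallest p could be named, besides gate genes and p53 regulators. Named outside this rule, after their values were seen or as cell type markers, were Paqr9, Bax, Rap2b, Mcpt8, Ms4a2, Mitf, Camp, Klrb1c, Prg2, Pecam1, Ctsc, Ngp, Cxcr2, Lsp1, Cebpe, Hoxa9, Meis1, Procr, Hlf, Ube2c, Plk1, Ier2, Gsk3b, Klf1, Car1, Trac, Epx, Adgre1 and Cdh5. The comparison and the lists were chosen with earlier results of these data known. Promoter sequences are from RefSeq (GRCm38.p6).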

Additional observations from a re-analysis of the deposited data

How the results depend on the processing

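Across the 28 alternatives the count of genes called in the double mutant against Pu.1-URE-/- was 0, except for 329 with DESeq2, 1 with only the groups compared (Gm15772), and a range of 0 to 4 when single libraries were left out. Without Mdmx-Tg/Pu.1-URE-/- replicate 2 the count was 4 (Mst1r, Spon2, Asb17 and Pklr, all lower), and without Pu.1-URE-/- replicate 2 it was 1 (1700047I17Rik2). The count for the difference between backgrounds was 0, except 194 with DESeq2, and 0 in every leave-one-out fit; the fit of only the groups compared gives no such value. The Mdm4 log2 change was 1.54 with DESeq2 (adjusted p = 0.0283), 1.19 to 1.81 with single libraries left out, 1.02 among libraries with low Y-linked reads and 2.90 with a length offset. Of 149 genes followed, 57 were called by DESeq2 and by no other setting, and 1 reversed: Cebpe, at 0.26 with the Y-linked covariate (the cause was not tested). Replicate numbers did not pair the samples (correlations of same-numbered deviations 0.0708, 0.0856 and 0.0564, although each library correlated best with its own number). With the replicate block, the count was 0 and Mdm4 was 1.52. The precision is limited by 3 animals per group and a biological coefficient of variation of 0.796, at 48444402 to 54956119 reads per library.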

Other observations

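Rpl3, a protein of the large ribosomal subunit, stood at 550, 814 and 556 CPM in the double mutants and 144, 227 and 167 CPM in Pu.1-URE-/- (log2 change 1.84, SE 0.52, edgeR adjusted p = 0.406, DESeq2 adjusted p = 0.0108). The gap lay on 1 transcript, Rpl3-201, with 25482, 40871 and 25869 reads in the double mutants and 5009, 9951 and 6735 in Pu.1-URE-/-. All other Rpl3 transcripts together had 1905, 2868 and 2197 reads against 2018, 2919 and 1726. The high level was not limited to the double mutant: Rpl3-201 had 8856, 9913 and 50712 reads in Wild-type and 12264, 15385 and 43458 in Mdmx-Tg. Of the 77 ribosomal protein genes tested, the groups did not overlap at 2, both higher in the double mutant, against 9.89% of all genes.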
